A study of Mus musculus with 33 samples.

Results

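Interferon response and antigen presentation genes were followed through the reprogramming of mouse embryonic fibroblasts (MEFs) into induced pluripotent stem (iPS) cells. A list of 44 gene symbols defined the set, and it was chosen with earlier results of these data known. Of these, 43 were matched to an identifier in the count files, out of 37583 identifiers in all, and Psmb9 was not analysed here. All 43 passed the filter on low counts, which left 17326 genes for testing. Every group was of strain 129SV/Jae/C57BL6J. MEFs were grown in MEF media. The other groups were reprogramming cells kept in ES media with dox (doxycycline) and AA, harvested on days 3, 6, 9 and 12 or at the iPS stage, released with trypsin and sorted by FACS into cells without (SSEA1neg) and with (SSEA1pos) the surface carbohydrate SSEA1. Each of the 11 groups had 3 libraries of poly-A RNA, 33 in all. The labels name no promoter for the reprogramming factors, no clone and no donor animal, and do not say whether replicates came from separate cultures, so every p-value below reflects scatter among these libraries alone, and that scatter may be technical.

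Interferons are secreted alarm signals that bind receptors on the same or neighbouring cells and act through JAK kinases and STAT and IRF transcription factors. These factors switch on genes whose products sense foreign RNA or DNA, block virus replication and load peptides on MHC class I molecules for T cells. Fibroblasts hold a low, constant level of many of these products and respond strongly to interferon, whereas mouse pluripotent stem cells are known for a weak interferon response and little surface MHC class I.

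Many of these genes carry the interferon-stimulated response element (ISRE), the site of STAT and IRF complexes, or the gamma-activated sequence (GAS), the site of STAT dimers. RefSeq promoter windows of 300 bases (GRCm38.p6, from 250 bases before to 50 after the start) were matched for 34 of the 43 members by symbol. The ISRE core, GAAA followed by any 2 bases and GAAA again, was searched on both strands and was present in 18 of 41 member windows (43.9%), against 3.44% of the 32851 windows in the table. TTCNNNGAA (GAS), which reads the same on both strands, was present in 9 of 41 member windows (22%), against 8.3% of all windows. The 170 bases before the start are shown for 6 members that were among those most often called and had the most matches (Isg15, Ifit1, Ifit3, Irgm1, B2m and Bst2). Oas3 was added after its values were seen, because it moved the other way from most of these in SSEA1pos cells. Each runs 5′ to 3′ on the gene's strand, with motif matches in capitals.
Isg15: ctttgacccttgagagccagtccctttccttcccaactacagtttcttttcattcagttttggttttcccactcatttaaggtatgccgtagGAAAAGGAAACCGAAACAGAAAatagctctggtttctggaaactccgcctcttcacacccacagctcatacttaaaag
Ifit1: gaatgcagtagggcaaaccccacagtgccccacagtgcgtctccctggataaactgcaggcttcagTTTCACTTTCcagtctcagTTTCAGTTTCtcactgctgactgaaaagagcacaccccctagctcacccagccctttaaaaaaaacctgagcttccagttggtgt
Ifit3: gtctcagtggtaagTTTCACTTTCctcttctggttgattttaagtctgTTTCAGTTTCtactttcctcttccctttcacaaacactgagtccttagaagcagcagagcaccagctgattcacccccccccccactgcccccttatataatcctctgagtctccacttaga
Irgm1: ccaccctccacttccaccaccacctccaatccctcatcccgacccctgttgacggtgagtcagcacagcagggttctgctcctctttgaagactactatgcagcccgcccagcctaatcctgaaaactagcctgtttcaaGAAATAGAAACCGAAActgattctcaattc
B2m: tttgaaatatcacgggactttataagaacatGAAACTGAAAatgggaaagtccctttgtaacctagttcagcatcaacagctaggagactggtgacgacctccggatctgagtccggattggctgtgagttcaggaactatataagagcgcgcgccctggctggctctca
Bst2: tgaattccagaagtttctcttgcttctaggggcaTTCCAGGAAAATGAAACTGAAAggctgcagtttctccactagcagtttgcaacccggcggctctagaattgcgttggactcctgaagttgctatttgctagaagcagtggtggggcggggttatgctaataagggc
Oas3: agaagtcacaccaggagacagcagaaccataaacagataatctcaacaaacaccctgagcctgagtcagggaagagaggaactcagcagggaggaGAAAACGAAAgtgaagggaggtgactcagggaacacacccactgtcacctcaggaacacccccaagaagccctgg
Their positions were Isg15 chr4:156200819-156200988 (minus strand), Ifit1 chr19:34640719-34640888 (plus strand), Ifit3 chr19:34583359-34583528 (plus strand) and Irgm1 chr11:48871421-48871590 (minus strand), followed by B2m chr2:122147517-122147686 (plus strand), Bst2 chr8:71537473-71537642 (minus strand) and Oas3 chr5:120777660-120777829 (minus strand). The capitals in Isg15 hold 3 ISRE matches that overlap each other, those in Irgm1 hold 2, and those in Bst2 hold 1 GAS match that overlaps a pair of ISRE matches. Ifit1 and Ifit3 each have 2 separate ISRE matches, and B2m and Oas3 have 1 each. A match describes letters only and binding was not measured.

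Reads counted in genes ranged from 8.93 to 41.69 M per library, with a median of 23.15 M. Levels below are read counts scaled by TMM to a common library size (CPM), and are compared only within a gene. A count of 0 allows up to 3 reads, which is 0.0757 to 0.417 CPM depending on the library and covers counting error only. The replicate 2 libraries of MEFs and of SSEA1neg cells stood apart in macrophage markers. Cd68 and Laptm5 were left out of the sum after their values were seen. Laptm5 was high in both fractions, with group means of 151 to 550 CPM in SSEA1pos cells and 202 to 430 CPM in SSEA1neg cells of days 3 to 12. Its mean was 52.1 CPM in iPS-stage SSEA1neg cells and 12.5 CPM in MEFs. Cd68 had its highest mean in iPS-stage SSEA1pos cells. From day 6 on, Cd68 was also highest in replicate 2 of the SSEA1neg cells. Summed over 11 of the 13 markers found, the replicate 2 libraries of MEFs and SSEA1neg cells had 202, 44.1, 220, 305, 377 and 575 CPM in MEFs and at days 3, 6, 9, 12 and the iPS stage. The other MEF and SSEA1neg libraries had 4.59 to 32.1 CPM, and SSEA1pos libraries 1.00 to 9.91 CPM. With all 13 markers the sums were 6.92 to 241 CPM in MEFs, 47.8 to 686 CPM in SSEA1neg cells and 191 to 829 CPM in SSEA1pos cells. All 13 had reads in MEFs and SSEA1neg cells, while Spi1, Ptprc and Tyrobp were each at 0 in 1 SSEA1pos group (days 3, 6 and 9). Fibroblast markers summed to 75250 to 82980 CPM in MEFs, 2148 to 14070 CPM in SSEA1neg cells and 42.9 to 1401 CPM in SSEA1pos cells, and most of the sum was collagen genes. All of these markers but Dcn had their highest mean in MEFs, so the label of the starting cells matched them. Dcn had a mean of 38.7 CPM in MEFs, against 46.2 CPM in day 9 and 53.6 CPM in iPS-stage SSEA1neg cells. Pluripotent cell markers reached 4158 to 6387 CPM in iPS-stage SSEA1pos cells. In iPS-stage SSEA1neg cells they were at 109, 366 and 2542 CPM in replicates 1, 2 and 3, so replicate 3 stood apart there. In bulk RNA, fewer cells of a type and less RNA per cell cannot be told apart.

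**Figure D1:**
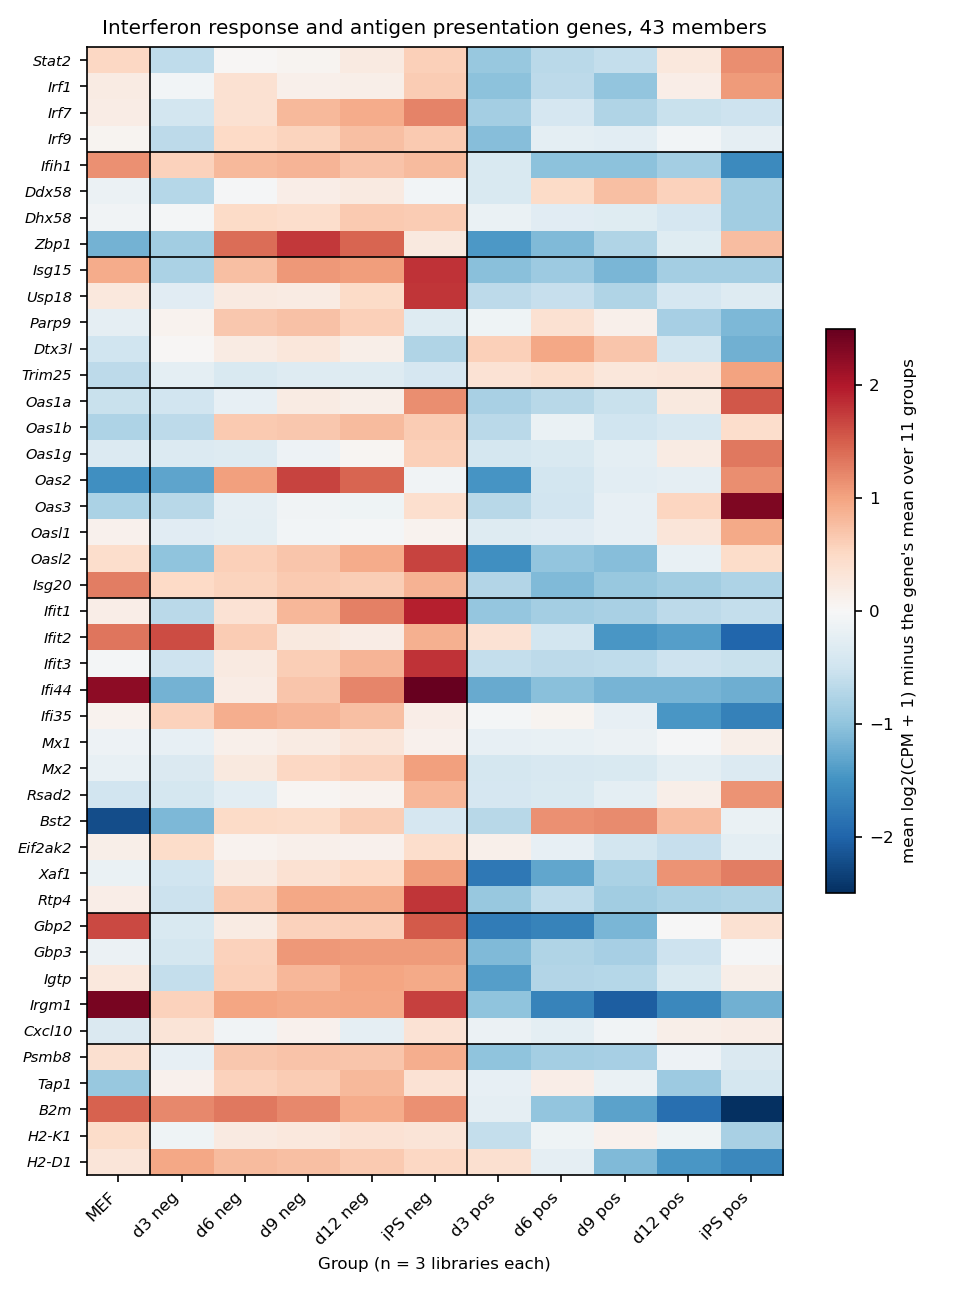
Mean level of each of the 43 members (rows, grouped by role) in each of the 11 groups (columns, n = 3 libraries each), as mean log2(CPM + 1) minus the gene's own mean over the groups. Most rows are blue in the SSEA1pos columns and in SSEA1neg cells of day 3 and red in SSEA1neg cells from day 6 on, while Oas3, Oas1a and Trim25 are reddest in iPS-stage SSEA1pos cells.

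The difference between fractions of one stage asks which members separated cells with SSEA1 from those without. Members were lower in SSEA1pos cells from day 6 on: 22 fell and 0 rose on day 6, 26 and 0 on day 9, 22 and 0 on day 12, and 19 fell and 4 rose at the iPS stage. On day 3 only 5 of 43 fell and 0 rose. A gene was called where edgeR's quasi-likelihood test gave a Benjamini-Hochberg adjusted p under 0.05 over all genes and the change was at least 2-fold. Of all tested genes, 3.91% fell on day 3, 10.1% on day 6, 13.7% on day 9, 18% on day 12 and 21.3% at the iPS stage, while 2.76%, 6.31%, 11.5%, 18% and 16% rose. The median log2 change of the members was -1.06, -1.42, -1.96, -1.57 and -1.07 at the successive stages, against -0.03, -0.01, 0.03, 0.06 and 0.06 over all tested genes. On day 9 all 3 SSEA1pos values lay below all 3 SSEA1neg values for 34 of 43 members and above for 1, against 25.4% and 28.2% of all tested genes.

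**Figure D2:**
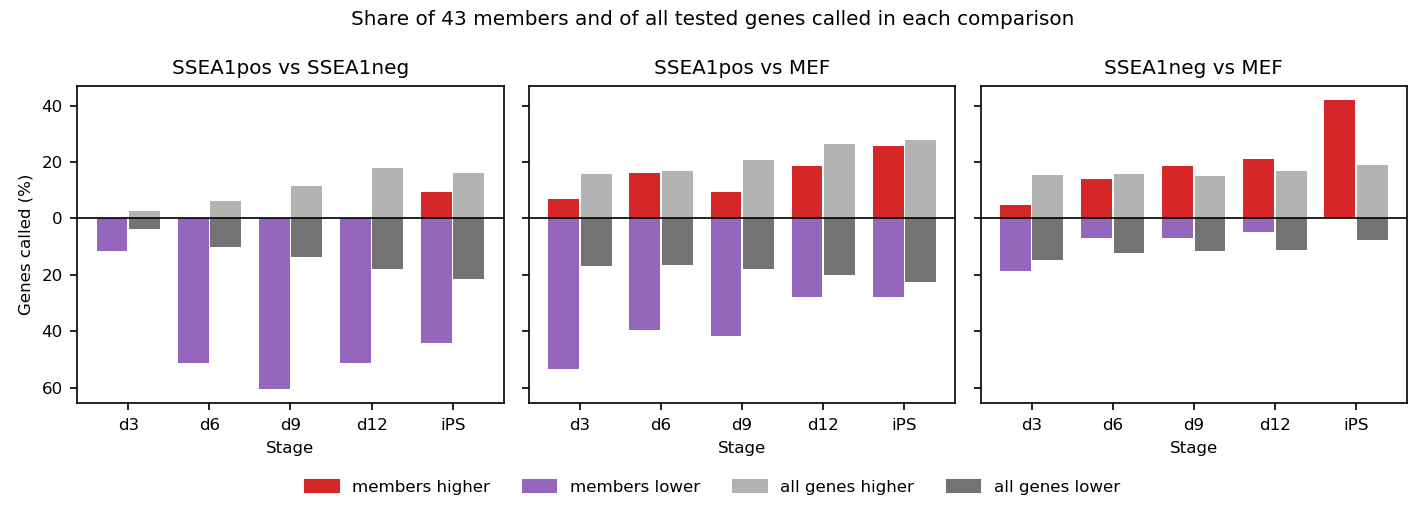
Share of the 43 members (coloured bars) and of the 17326 tested genes (grey bars) called higher (above 0) or lower (below 0), by stage, for the fractions against each other and each against MEFs (vertical axis in percent). In the left panel the members' bars lie almost wholly below 0, reaching 26 of 43 on day 9.

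How many members were called depended on single libraries and on replicate 2. With every replicate 2 library left out, a setting chosen after seeing the data, 0, 8, 23, 12 and 17 members were called at the 5 stages. On day 3, 9 fell with the replicate number as a block and 11 by DESeq2. That day's count was 1 without SSEA1neg replicate 2, 3 without SSEA1neg replicate 3, 1 without SSEA1pos replicate 1 and 0 without SSEA1pos replicate 3. On day 6 it was 14 without SSEA1pos replicate 2 and 12 without SSEA1pos replicate 3. On day 9, 19 of the 26 calls held in all 11 alternatives run for it (Irf1, Irf7, Isg15, Isg20, Ifit1, Ifit2, Ifit3, Ifi44, Ifih1, Oas2, Oasl2, Mx2, Zbp1, Gbp3, Irgm1, Psmb8, Rtp4, B2m and H2-D1). The part of macrophage markers in the day 6 and day 12 counts was not tested beyond this.

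Among the transcription factors, Irf7, the IRF that amplifies type I interferon production, separated the fractions from day 9 on. Its level in day 9 SSEA1neg cells was 3.81, 3.68 and 2.64 CPM in replicates 1, 2 and 3, and in SSEA1pos cells 0.870, 0.532 and 0.144 CPM. At the iPS stage the SSEA1neg libraries held 6.24, 9.91 and 1.56 CPM and the SSEA1pos libraries 1.11, 0.891 and 0.315 CPM. SSEA1pos values were lower without overlap at both stages, with log2 changes of -2.69 ± 0.64 (SE; edgeR adjusted p = 0.00182) and -2.92 ± 0.64 (adjusted p = 0.000512). Irf1, which drives the interferon-gamma programme, was at 18.04, 27.76 and 23.06 CPM in day 9 SSEA1neg cells and at 9.28, 12.6 and 8.23 CPM in SSEA1pos cells, without overlap. It fell by 1.19 ± 0.32 on the log2 scale there (edgeR adjusted p = 0.00437), then rose in SSEA1pos cells to 37.0, 20.8 and 15.8 CPM on day 12 and was at 34.4, 58.6 and 41.8 CPM at the iPS stage. The rise of 1.29 ± 0.32 from day 9 to day 12 (edgeR adjusted p = 0.00938) was not called without day 12 SSEA1pos replicate 1 or without the replicate 2 libraries (largest adjusted p = 0.127).

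Stat2 and Irf9 encode members of the complex that binds the ISRE. Stat2 was at 51.2, 28.1 and 47.5 CPM in MEFs and at 9.05, 14.7 and 20.4 CPM in day 3 SSEA1pos cells, all below the MEF values (log2 change -1.52 ± 0.30, edgeR adjusted p = 0.000195). By the iPS stage SSEA1pos cells had 53.0, 65.5 and 74.9 CPM, and in none of the 5 comparisons between fractions was it called. Irf9 in day 3 SSEA1pos cells was at 5.35, 12.1 and 10.3 CPM, below the 27.2, 14.2 and 22.5 CPM of MEFs (-1.21 ± 0.30, edgeR adjusted p = 0.00159); the call was lost without day 3 SSEA1pos replicate 1. In SSEA1neg cells Irf9 rose from 9.65, 15.43 and 11.97 CPM on day 3 to 30.0, 26.2 and 28.0 CPM on day 6, without overlap (1.18 ± 0.29, edgeR adjusted p = 0.0155), a call that was lost without day 3 SSEA1neg replicate 1 and without the replicate 2 libraries (largest adjusted p = 0.126). The IRF and STAT members did not share one course: Irf7 was low in SSEA1pos cells while the Stat2 and Irf1 means of iPS-stage SSEA1pos cells were the highest of the 11 groups.

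The RNA sensors also differed among themselves. Ifih1 encodes MDA5, the sensor of long double-stranded RNA. It was at 9.18, 7.34 and 7.93 CPM in MEFs, and in SSEA1neg cells its group means ran from 5.32 to 7.69 CPM. In SSEA1pos cells it was at 2.47, 2.06 and 2.00 CPM on day 3, 1.345, 0.801 and 0.9504 CPM on day 6, and 0.425, 0.557 and 0.157 CPM at the iPS stage. The groups did not overlap at day 6 (-2.66 ± 0.53, edgeR adjusted p = 0.000687) or at the iPS stage (-4.32 ± 0.59, adjusted p = 1.63e-06), and both calls held in every alternative run. Ddx58, which encodes the 5′-triphosphate RNA sensor RIG-I, was called in none of the 15 comparisons between fractions or with MEFs. Its MEF values were 54.6, 45.4 and 48.6 CPM. In SSEA1pos cells it was at 86.2, 88.4 and 72.1 CPM on day 12 and at 27.4, 44.4 and 20.4 CPM at the iPS stage, without overlap. That step was -1.42 ± 0.37 (edgeR adjusted p = 0.0115), and the call was lost without iPS-stage SSEA1pos replicate 3 or the replicate 2 libraries (largest adjusted p = 0.0775). Zbp1, a sensor of Z-form nucleic acids, was highest in SSEA1neg cells of day 9, at 10.1, 12.6 and 5.95 CPM, against 0.746, 1.64 and 0.191 CPM in SSEA1pos cells (-3.46 ± 0.75, edgeR adjusted p = 0.000877). MEFs had 0.407, 0.651 and 0 CPM, and iPS-stage SSEA1pos cells 3.67, 9.30 and 1.78 CPM, all above MEFs (3.68 ± 0.82, edgeR adjusted p = 0.00039).

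Isg15 encodes a ubiquitin-like protein that is joined to other proteins after interferon, and Usp18 the protease that removes it and damps receptor signalling. In MEFs Isg15 was at 8.25, 1.95 and 2.78 CPM. It was lower in both fractions on day 3, at 0.203, 0.543 and 0.555 CPM in SSEA1neg and 0.187, 0.265 and 0.153 CPM in SSEA1pos cells. By day 9 SSEA1neg cells had 3.75, 5.01 and 3.97 CPM and SSEA1pos cells 0.290, 0.0819 and 0 CPM. The day 9 groups did not overlap, and the difference of -5.00 ± 1.099 (edgeR adjusted p = 0.000962) held in every alternative run. In iPS-stage SSEA1neg cells Isg15 was at 8.16, 23.6 and 1.86 CPM, replicate 2 far above the others, and in SSEA1pos cells at 0.691, 0.446 and 0.0525 CPM (-4.80 ± 1.04, edgeR adjusted p = 0.000469). Usp18 at the iPS stage was at 8.47, 14.4 and 0.521 CPM in SSEA1neg and 1.27, 0.223 and 0 CPM in SSEA1pos cells, so the groups overlapped (-3.95 ± 1.16, edgeR adjusted p = 0.00629; not called without the replicate 2 libraries). On day 9 it had 78 reads in SSEA1neg cells and 3 in SSEA1pos cells, 25.1-fold more per normalised library (95% counting interval 8.27 to 124). Counting intervals here and below leave out the scatter between libraries. The day 9 call of Usp18 was lost without the replicate 2 libraries (edgeR adjusted p = 0.114).

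Trim25, the ubiquitin ligase that activates RIG-I, went the other way. It was at 91.6, 56.8 and 71.7 CPM in MEFs, 64.1, 89.2 and 106 CPM in iPS-stage SSEA1neg cells and 217, 198 and 283 CPM in iPS-stage SSEA1pos cells. The last group lay above both others (1.42 ± 0.25 against SSEA1neg, edgeR adjusted p = 5.25e-05; 1.66 ± 0.25 against MEFs, adjusted p = 3.61e-06). The proteins of Parp9 and Dtx3l form an ADP-ribosylating and ubiquitin ligase complex. Parp9 in SSEA1pos cells was at 25.7, 29.4 and 25.8 CPM on day 9 and at 13.5, 11.7 and 15.4 CPM on day 12. These values were lower without overlap, although the step was not called. Day 12 SSEA1neg cells had 36.1, 36.2 and 41.6 CPM of Parp9, all higher (-1.49 ± 0.29, edgeR adjusted p = 0.000198).

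**Figure D3:**
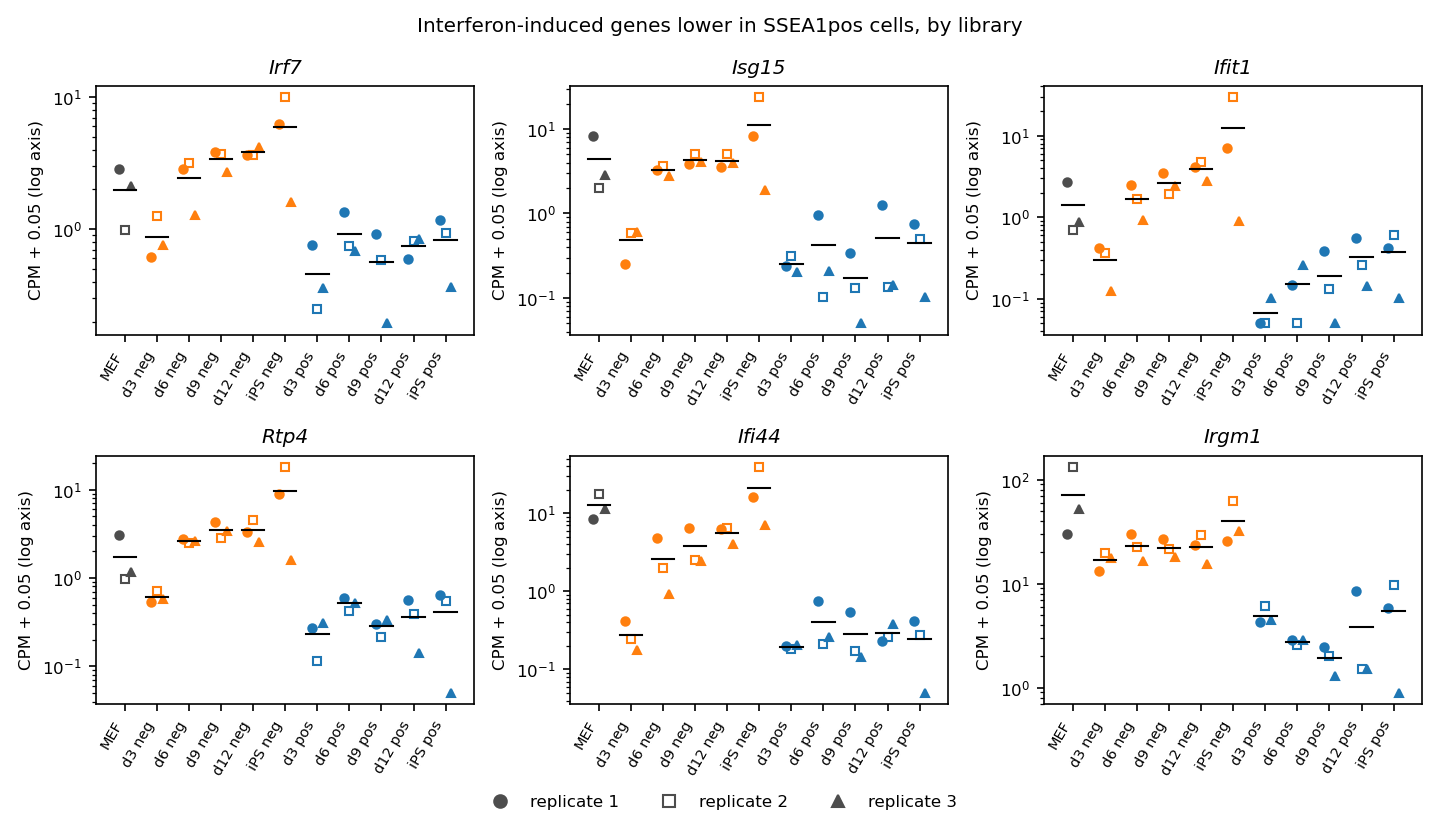
Levels of 6 interferon-induced members in each library (CPM + 0.05 on a log axis), by group, with replicates 1, 2 and 3 as circles, open squares and triangles and the mean as a bar. SSEA1pos libraries (blue) sit below SSEA1neg libraries (orange) for Irf7, Isg15, Ifit1, Rtp4, Ifi44 and Irgm1 on day 9, and iPS-stage SSEA1neg replicate 2 is the highest library for Isg15, Ifit1, Rtp4 and Ifi44.

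The IFIT proteins bind viral RNA and stop its translation. Ifit1 was at 3.46, 1.90 and 2.35 CPM in day 9 SSEA1neg cells and at 0.331, 0.0819 and 0 CPM in SSEA1pos cells, without overlap (-4.14 ± 1.07, edgeR adjusted p = 0.00371). At the iPS stage it was at 7.03, 29.4 and 0.857 CPM in SSEA1neg and 0.372, 0.557 and 0.0525 CPM in SSEA1pos cells (-5.23 ± 1.07, edgeR adjusted p = 0.000274). Replicate 2, the highest of these libraries, also had the most macrophage-marker reads, and their part in the difference was not tested. Ifit3 showed the same order at the iPS stage, at 4.01, 16.0 and 1.08 CPM in SSEA1neg and 0.319, 0 and 0 CPM in SSEA1pos cells (-5.96 ± 1.06, edgeR adjusted p = 5.64e-05). Ifit2 differed in that MEFs were high, at 15.3, 15.6 and 13.6 CPM, and SSEA1pos cells went from 5.20, 8.75 and 7.62 CPM on day 3 to 0.319, 0.836 and 0.682 CPM at the iPS stage (-4.59 ± 0.57 against MEFs, edgeR adjusted p = 1.66e-07). Reads shared with near-identical copies could be left out in counting, so levels of the Ifit, Oas1, Gbp and H2 genes are less certain than the others.

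Rtp4, an interferon-induced chaperone that limits RNA virus replication, and Ifi44, an interferon-induced protein, were both low in SSEA1pos cells. Rtp4 stayed between 0 and 0.584 CPM in every SSEA1pos library, whereas in SSEA1neg cells it went from 0.486, 0.659 and 0.530 CPM on day 3 to 4.21, 2.81 and 3.38 CPM on day 9. The fractions did not overlap on day 9 (-3.87 ± 0.79, edgeR adjusted p = 0.000488) and differed at the iPS stage too (-4.69 ± 0.80, adjusted p = 3.37e-05). Ifi44 was at 8.37, 17.9 and 11.4 CPM in MEFs and at 0.149, 0.133 and 0.153 CPM in day 3 SSEA1pos cells, below every MEF library (-6.37 ± 0.89, edgeR adjusted p = 2.82e-06). Day 3 SSEA1neg cells were low as well, at 0.365, 0.194 and 0.126 CPM (-5.79 ± 0.84 against MEFs, edgeR adjusted p = 7e-06). SSEA1neg cells then regained it, with 4.71, 1.94 and 0.878 CPM on day 6 and 16.4, 39.3 and 7.08 CPM at the iPS stage, while no SSEA1pos library passed 0.698 CPM. At the iPS stage the difference between fractions was -6.69 ± 0.89 (edgeR adjusted p = 1.24e-06), which held in every alternative run.

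Among the other antiviral effectors, Mx1, a GTPase that traps viral nucleocapsids, was near the limit of detection, with at most 0.581 CPM in any library. It was at 0 in all 3 day 3 SSEA1pos libraries. Eif2ak2, which encodes the translation-blocking kinase PKR, was called in none of the 15 comparisons between fractions or with MEFs. It was at 48.4, 31.8 and 37.9 CPM in MEFs and at 33.5, 26.1 and 29.8 CPM in iPS-stage SSEA1pos cells, which overlapped. Ifi35, an interferon-induced leucine zipper protein, was called lower in SSEA1pos cells from day 9 on. On day 12 it was at 2.47, 4.46 and 5.13 CPM against 19.97, 22.9 and 22.04 CPM in SSEA1neg cells of that day (-2.43 ± 0.29, edgeR adjusted p = 6.09e-07). Xaf1, an interferon-induced promoter of apoptosis, was called lower in SSEA1pos than in SSEA1neg cells on days 3, 6 and 9 but not later. In SSEA1pos cells it was at 3.74, 6.498 and 5.63 CPM on day 3, 12.5, 15.4 and 7.56 CPM on day 9 and 55.9, 49.5 and 34.7 CPM on day 12. The step from day 9 to day 12 was 1.98 ± 0.39 without overlap (edgeR adjusted p = 0.00196), and its call was lost without the replicate 2 libraries.

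At the iPS stage 11 of 43 members were called higher in SSEA1pos cells than in MEFs, a share near the 27.9% of all tested genes. They were Oas1a, Oas1b, Oas1g, Oas2, Oas3, Oasl1, Rsad2, Bst2, Zbp1, Xaf1 and Trim25. The OAS enzymes make the second messenger that activates RNase L. Oas2 was at 0.0581, 0.279 and 0.139 CPM in MEFs and at 4.30, 6.52 and 9.55 CPM in iPS-stage SSEA1pos cells, all above MEFs (5.47 ± 0.76, edgeR adjusted p = 8.66e-07). In SSEA1neg cells it was at 5.68, 6.10 and 5.76 CPM on day 6 and 10.5, 13.6 and 6.68 CPM on day 9. In the iPS-stage SSEA1neg group it was at 1.24, 4.23 and 1.71 CPM, below the SSEA1pos values, so the order of the fractions was the reverse of day 9 (1.51 ± 0.56, edgeR adjusted p = 0.0258). That call was lost when any of 4 libraries was left out (SSEA1neg replicates 1 and 3, SSEA1pos replicates 2 and 3) and without the filter on low counts (largest adjusted p = 0.148).

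Oas3 had 1 read in the 3 MEF libraries together and 482 reads in those of iPS-stage SSEA1pos cells, at 3.98, 9.58 and 12.3 CPM. The ratio per normalised library was 303 (95% counting interval 54.2 to 12000), and the iPS-stage SSEA1neg libraries held 0.446, 1.55 and 2.64 CPM. The iPS-stage fractions did not overlap (2.48 ± 0.63, edgeR adjusted p = 0.00224), and the call was lost only without the replicate 2 libraries (adjusted p = 0.0611). Oas1a was at 1.05, 0.0930 and 0.278 CPM in MEFs and 2.39, 3.96 and 12.9 CPM in iPS-stage SSEA1pos cells, without overlap (3.63 ± 0.69, edgeR adjusted p = 5.77e-05). In SSEA1neg cells of that stage it was at 1.65, 3.70 and 7.30 CPM, which overlapped. Oasl2, which encodes an OAS-like protein, was lower in SSEA1pos cells on day 9, at 5.62, 3.42 and 4.26 CPM in SSEA1neg and 0.539, 0.573 and 0.670 CPM in SSEA1pos cells (-2.89 ± 0.77, edgeR adjusted p = 0.00462).

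Rsad2 encodes viperin, which makes a chain-terminating nucleotide. It had 1 read in MEFs and 147 in iPS-stage SSEA1pos cells, at 2.44, 5.18 and 0.420 CPM, a ratio of 92.5 (95% counting interval 16.4 to 3680). SSEA1neg cells of that stage had 1.17, 3.32 and 0.745 CPM, within the same range. Bst2 encodes tetherin, which holds budding virus at the cell surface. It was at 16.8, 6.88 and 8.49 CPM in MEFs, 26.5, 36.5 and 30.1 CPM in day 3 SSEA1pos cells and 119, 118 and 98.2 CPM in day 6 SSEA1pos cells, without overlap between any of these. The day 6 difference from MEFs was 3.36 ± 0.43 (edgeR adjusted p = 7.17e-07), and SSEA1pos cells were still above MEFs at the iPS stage, at 66.0, 52.8 and 24.6 CPM (2.14 ± 0.42, adjusted p = 8.16e-05). Bst2 was called in none of the 5 comparisons between fractions.

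**Figure D4:**
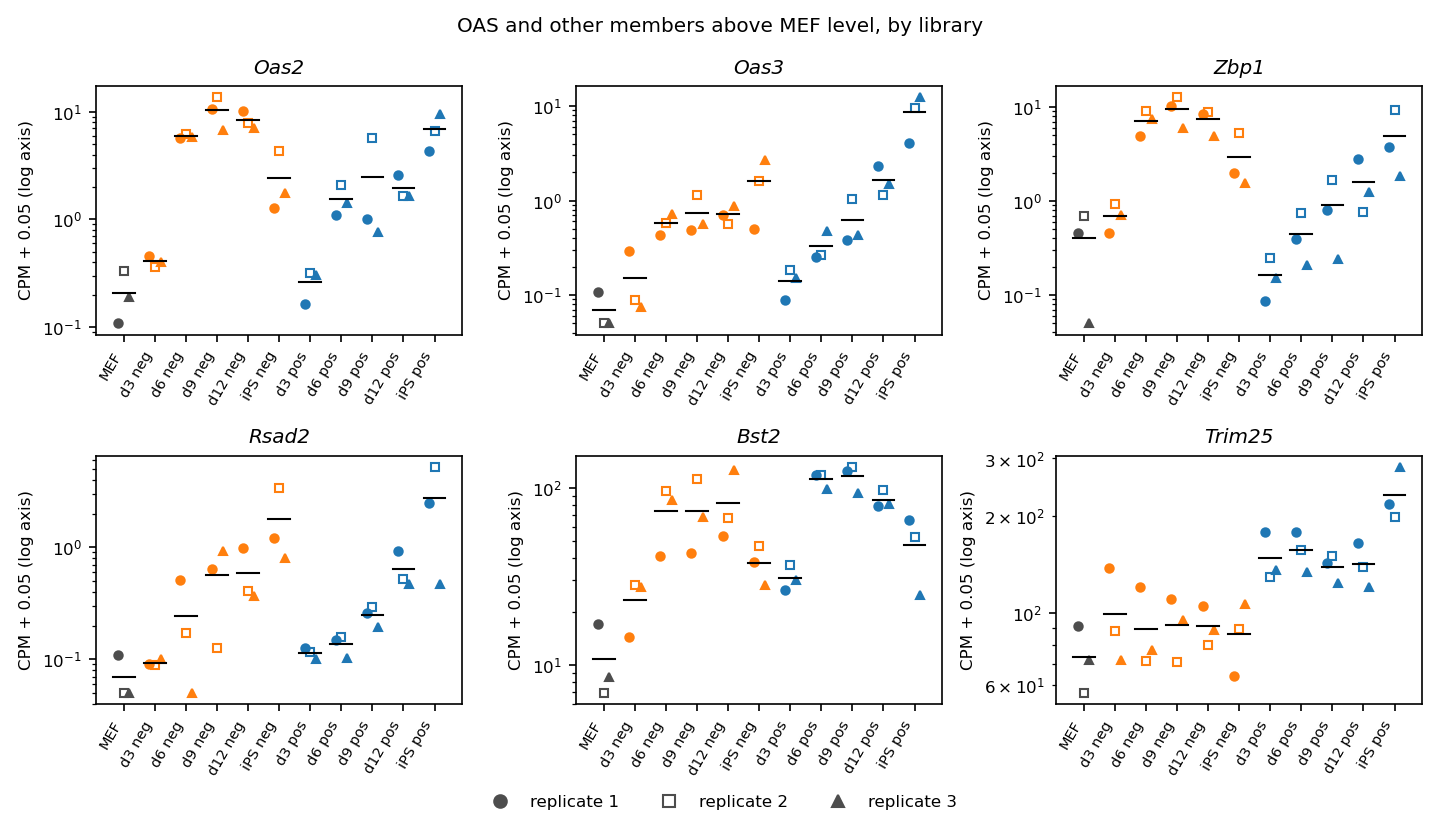
Levels of 6 members that ended above the MEF level in each library (CPM + 0.05 on a log axis), by group, with replicates 1, 2 and 3 as circles, open squares and triangles and the mean as a bar. Oas3 climbs through the SSEA1pos groups (blue) to 3.98 to 12.3 CPM, Oas2 and Zbp1 peak in SSEA1neg cells (orange) on day 9, and Bst2 peaks near day 9 in SSEA1pos cells.

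The interferon-gamma-inducible GTPases attack vacuoles that hold parasites. Irgm1, called most often of all members, was at 30.2, 133 and 52.6 CPM in MEFs, with replicate 2 the highest. In SSEA1pos cells it was at 2.40, 1.97 and 1.24 CPM on day 9, against 26.9, 21.3 and 17.9 CPM in SSEA1neg cells (-3.55 ± 0.68, edgeR adjusted p = 0.000257), a call that held in every alternative run. Gbp2 was at 20.7, 14.6 and 16.4 CPM in MEFs and 0.710, 0.796 and 0.614 CPM in day 3 SSEA1pos cells, far below (-4.60 ± 0.96, edgeR adjusted p = 0.000323). Later SSEA1pos libraries scattered, with 20.5, 1.57 and 2.29 CPM on day 12 and 7.49, 19.7 and 1.36 CPM at the iPS stage, and neither stage was called against SSEA1neg cells or MEFs. Igtp on day 9 was at 4.21, 7.52 and 4.85 CPM in SSEA1neg and 0.953, 2.17 and 0.718 CPM in SSEA1pos cells (-2.10 ± 0.62, edgeR adjusted p = 0.00973; not called without SSEA1pos replicate 3, largest adjusted p = 0.0556). Cxcl10, the T cell attracting chemokine, was at 0.639, 0.0930 and 0 CPM in MEFs and at 0.755, 2.46 and 0.335 CPM in iPS-stage SSEA1neg cells. Those groups overlapped, and its call there was lost in 7 of 11 alternatives.

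Of the antigen presentation members, B2m showed the steadiest fall. B2m encodes beta-2-microglobulin, the light chain that every MHC class I molecule needs. It was at 357, 418 and 413 CPM in MEFs, and the 5 SSEA1neg group means lay between 282 and 362 CPM. In SSEA1pos cells it was at 140, 116 and 107 CPM on day 3, 103, 62.0 and 56.0 CPM on day 6, and 82.1, 44.2 and 47.2 CPM on day 9. It then reached 32.3, 35.6 and 46.1 CPM on day 12 and 29.5, 24.8 and 8.92 CPM at the iPS stage. No SSEA1pos library overlapped the SSEA1neg libraries of its stage. The difference between fractions was -1.43 ± 0.38 on day 3, -2.30 ± 0.39 on day 6, -2.54 ± 0.39 on day 9, -2.89 ± 0.40 on day 12 and -4.04 ± 0.42 at the iPS stage (edgeR adjusted p = 0.0147, 0.000161, 3.03e-05, 3.57e-06 and 3.2e-08). The day 3 call was lost without SSEA1pos replicate 3 and without the replicate 2 libraries (largest adjusted p = 0.119), and the later 4 held in every alternative run.

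H2-D1 and H2-K1 encode the MHC class I heavy chains. H2-D1 was at 47.1, 67.4 and 72.0 CPM in MEFs and at 77.9, 64.2 and 55.0 CPM in day 3 SSEA1pos cells, which overlapped. On day 9 it was lower in SSEA1pos cells, at 19.6, 24.7 and 23.5 CPM against 63.8, 129 and 70.4 CPM in SSEA1neg cells (-1.96 ± 0.35, edgeR adjusted p = 0.00015), and on day 12 was at 15.6, 14.5 and 22.4 CPM. H2-K1 at the iPS stage was at 54.6, 74.2 and 39.1 CPM in SSEA1neg and 14.2, 23.4 and 42.2 CPM in SSEA1pos cells, with overlap (-1.07 ± 0.34, edgeR adjusted p = 0.0116). That call was lost without SSEA1neg replicate 2, SSEA1pos replicate 1 or the replicate 2 libraries (largest adjusted p = 0.23).

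Tap1 encodes a subunit of the pump that carries peptides to MHC class I, and Psmb8 encodes a catalytic subunit of the immunoproteasome that cuts them. Tap1 was at 8.83, 10.2 and 13.2 CPM in MEFs and rose in SSEA1neg cells to 43.04, 31.44 and 28.94 CPM on day 9 (1.69 ± 0.39, edgeR adjusted p = 0.00139). On day 12 it was at 42.6, 32.4 and 40.2 CPM in SSEA1neg and 5.93, 12.9 and 16.9 CPM in SSEA1pos cells, without overlap (-1.69 ± 0.39, edgeR adjusted p = 0.000816). Psmb8 on day 9 was at 1.498, 5.01 and 2.64 CPM in SSEA1neg and 0.456, 0.369 and 0.0957 CPM in SSEA1pos cells, also without overlap (-3.28 ± 0.84, edgeR adjusted p = 0.00341). The highest SSEA1neg value was in replicate 2, where macrophage markers summed to 305 CPM, and their part in the difference was not tested.

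**Figure D5:**
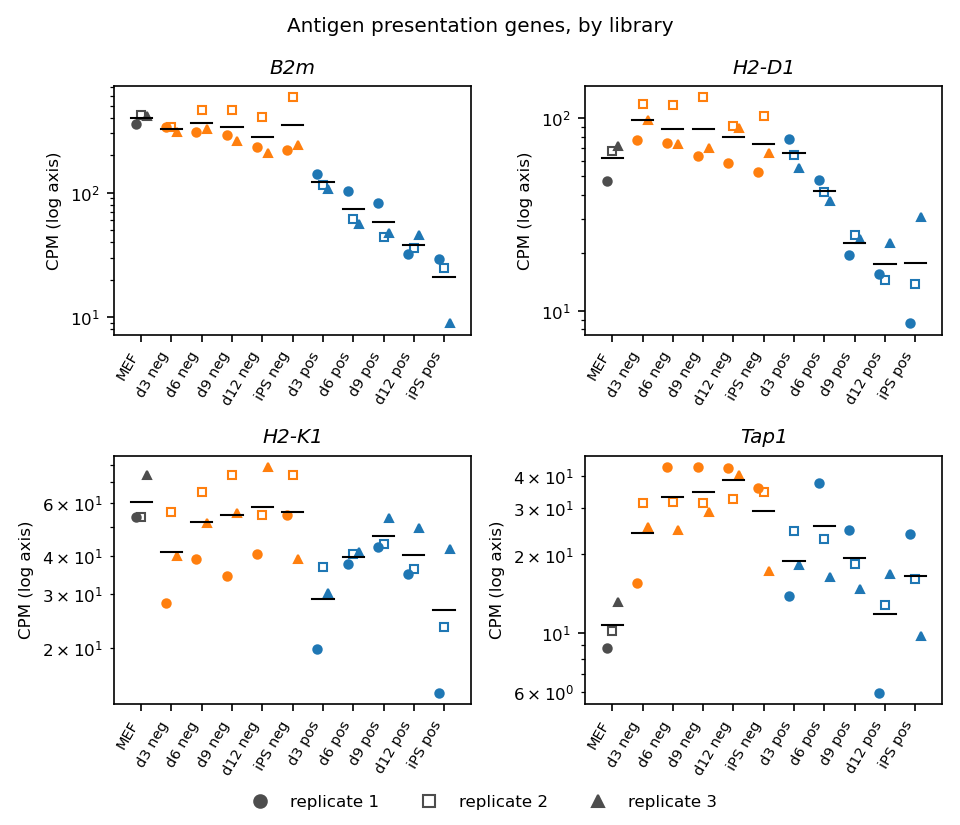
Levels of 4 antigen presentation members in each library (CPM on a log axis), by group, with replicates 1, 2 and 3 as circles, open squares and triangles and the mean as a bar. B2m steps down through the SSEA1pos groups (blue) to 8.92 to 29.5 CPM while SSEA1neg groups (orange) stay near the MEF level (grey); H2-D1 falls later, and H2-K1 overlaps between fractions at the iPS stage.

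Comparison with MEFs asks how far each fraction had moved from the starting cells. Both fractions also differed from MEFs in medium, dox, AA and sorting, which cannot be told apart from reprogramming here. SSEA1pos cells had 23 members lower and 3 higher on day 3, 17 and 7 on day 6, 18 and 4 on day 9, 12 and 8 on day 12, and 12 and 11 at the iPS stage. Of all tested genes 16.7%, 16.6%, 18%, 20.2% and 22.5% were lower and 15.6%, 16.9%, 20.6%, 26.5% and 27.9% higher. From day 12 the members' shares were thus near the background in both directions. The median log2 change of the members was -1.71, -1.15, -1.18, -0.52 and -0.69, against 0.09, 0.17, 0.21, 0.26 and 0.22 over all tested genes. Changes from MEFs are to be read against that median. Under another scaling (RLE) Trim25 and Dtx3l kept their direction on day 3 but not their call. All comparisons with MEFs share the same 3 MEF libraries. Without the replicate 2 libraries the day 12 count was 13 in place of 20.

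Against MEFs, SSEA1neg cells had 8 members lower and 2 higher on day 3, then 3 lower and 6 higher on day 6, 3 and 8 on day 9, 2 and 9 on day 12, and 0 and 18 at the iPS stage. Among all tested genes 14.9%, 12.4%, 11.6%, 11.1% and 7.7% were lower and 15.3%, 15.8%, 14.9%, 17% and 19.1% higher. The iPS-stage share of rises, 41.9% of the members, was above the background, and the few day 3 rises and the absence of iPS-stage falls were below it. The members' medians were -0.55, 0.40, 0.67, 0.65 and 1.21, against 0.07, 0.13, 0.09, 0.12 and 0.19 over all genes. The iPS-stage count rested on replicate 2, the library with 575 CPM of macrophage markers: it was 9 without that library and 3 without the replicate 2 libraries of all groups. Keratinocyte markers, at 59.3, 103 and 2.12 CPM in replicates 1, 2 and 3 of these cells and at 0.139 to 0.372 CPM in MEFs, were also highest in replicate 2, and all 6 were called higher than in MEFs. Endothelial markers were at 43.1, 44.7 and 70.7 CPM, against 5.02 to 10.5 CPM in MEFs. The sum was higher in every other reprogramming group, with 163 to 274 CPM in day 3 SSEA1neg and 153 to 210.5 CPM in iPS-stage SSEA1pos cells. These sums rested largely on single genes. Tek had a mean of 206.4 CPM in day 3 SSEA1neg cells, against 15.7 CPM in iPS-stage SSEA1neg cells. Each other endothelial marker had a lower mean in day 3 than in iPS-stage SSEA1neg cells. Pecam1 gave 52.5 CPM of the sum in replicate 3 of iPS-stage SSEA1neg cells, and its mean in iPS-stage SSEA1pos cells was 158.5 CPM. Which cells these markers came from, and their part in the count, was not tested. Of the 43 members, 38 were highest in replicate 2 of the iPS-stage SSEA1neg cells and 31 were lowest in replicate 3, the library with 2542 CPM of pluripotent cell markers. Oas2 and Oas3 were called higher than in MEFs in every alternative run. On day 3 the count was 6 without MEF replicate 1, on day 9 it was 6, 7 and 6 without MEF replicate 2, MEF replicate 3 and day 9 SSEA1neg replicate 3, and on day 12 it was 7 without MEF replicate 2. Without the replicate 2 libraries the counts of days 6, 9 and 12 were 4, 4 and 7. Among the MEF libraries, replicate 1 was the highest for 26 of 43 members and replicate 2 the lowest for 27.

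Successive stages ask when the members moved within a fraction. In SSEA1neg cells 10 members rose and 0 fell from day 3 to day 6 (4.65% and 1.24% of all tested genes): Irf9, Ifi44, Oas1b, Oas2, Oas3, Oasl2, Mx1, Mx2, Bst2 and Zbp1. Oas2 rose by 4.02 ± 0.63 on the log2 scale (edgeR adjusted p = 0.000969) and was the only one called in every alternative. The count was 3, 6, 4 and 6 without day 3 replicates 1 and 3 and day 6 replicates 2 and 3, and 1 without the replicate 2 libraries. Between days 6 and 9 and between days 9 and 12 no member was called in SSEA1neg cells by edgeR or DESeq2, and 0 of 43 had an unadjusted edgeR p under 0.05, where 0% and 0.0693% of all genes were called. From day 12 to the iPS stage only Oas2 fell (-1.80 ± 0.56, edgeR adjusted p = 0.0434), with 2.5% of all genes falling and 4.72% rising; the count ran from 0 to 3 over libraries left out.

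In SSEA1pos cells Oas2 and Bst2 rose from day 3 to day 6 and no member fell (3.21% and 1.25% of all genes). The count was 0 without day 3 replicate 1 or without the replicate 2 libraries, and 1 without day 6 replicate 2. From day 6 to day 9 no member was called by edgeR or DESeq2, with 2 at an unadjusted edgeR p under 0.05 and 1.08% of all genes called. From day 9 to day 12 Irf1, Oasl1 and Xaf1 rose and Ifi35 and Dtx3l fell (5.37% and 3.45% of all genes). That count was 2 without day 12 replicate 1, 8 without day 12 replicate 3 and 8 by DESeq2. From day 12 to the iPS stage Oas1a, Oas2 and Oas3 rose and Ifih1 and Ddx58 fell (3.74% and 5.75% of all genes), and this count was 3 without day 12 replicate 2, 1 without day 12 replicate 3 and 1 without iPS-stage replicate 3. Both later counts were 0 without the replicate 2 libraries.

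Whether the difference between fractions itself changed was tested as an interaction. From day 3 to day 12 it became more negative for Ifi44 (-3.92 ± 1.24), Ifi35 (-1.72 ± 0.39), Parp9 (-1.30 ± 0.41), Dtx3l (-1.25 ± 0.41) and H2-D1 (-1.61 ± 0.49) and moved up for Xaf1 (2.11 ± 0.55), as log2 changes of the difference. For Xaf1 the difference was -1.44 on day 3 and 0.67 on day 12. Their edgeR adjusted p-values were 0.0307, 0.00443, 0.0293, 0.0367, 0.0238 and 0.0103. Of all tested genes 7.93% moved down and 6.21% up, so 5 and 1 of 43 members were near the background. From day 12 to the iPS stage it changed for Oas2 alone (3.62 ± 0.80, edgeR adjusted p = 0.0165), with 0.41% of all genes moving up and 1.44% down. Neither count was above 0 without the replicate 2 libraries. With single libraries left out the first count ran from 2 to 9 and the second from 0 to 3.

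The rest of the pathway was read from 4 further lists of 84 tested genes in all. Reads of the interferon genes themselves were few or absent. Ifnb1, Ifna4, Ifna2, Ifne, Ifng and Ifnl3 had no read in any library, Ifnk had 12 reads in 7 libraries and Ifnl2 had 1 read. As background for these lists, 3.91%, 10.1%, 13.7%, 18% and 21.3% of all tested genes were lower in SSEA1pos than in SSEA1neg cells at days 3, 6, 9, 12 and the iPS stage, and 2.76%, 6.31%, 11.5%, 18% and 16% higher. Of 6 receptor genes 4 were lower in SSEA1pos than in SSEA1neg cells on day 12 and 0 higher. Il10rb, a subunit shared by the interferon-lambda and interleukin-10 receptors, was at 2.81 ± 1.3 CPM (SD, n = 3) against 31.8 ± 7.9 CPM (-3.50 ± 0.44, edgeR adjusted p = 1.31e-06). Among 33 other interferon-induced genes 8, 13, 18, 19 and 17 were lower in SSEA1pos cells at days 3, 6, 9, 12 and the iPS stage, and 0, 0, 0, 1 and 2 higher. Ifi27 showed it from day 3, at 2.16 ± 1.3 against 12.6 ± 4.1 CPM, to the iPS stage, at 3.15 ± 3.7 against 78.5 ± 33 CPM (SD, n = 3; -4.64 ± 0.66, edgeR adjusted p = 3.43e-06).

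Among 21 genes of sensing and signal relay 2, 4, 7, 9 and 10 were lower in SSEA1pos cells and 0, 0, 0, 0 and 1 higher. Tlr4, the lipopolysaccharide receptor, was at 0.412 ± 0.099 against 18.9 ± 7.9 CPM on day 12 (SD, n = 3; -5.50 ± 0.81, edgeR adjusted p = 7.52e-06). Tmem173, which encodes the DNA-response adaptor STING, fell in iPS-stage SSEA1pos cells to 1.70 ± 0.78 CPM from 56.6 ± 13 CPM in MEFs (SD, n = 3; -5.05 ± 0.59, edgeR adjusted p = 6.33e-08). Among 24 other antigen presentation genes 2, 4, 6, 7 and 7 were lower and 1, 1, 1, 3 and 1 higher. The shares lower were above the background at every stage, and the shares higher were below it from day 6 on. These counts are small, and the lean was not tested. H2-Eb1, an MHC class II gene, rose in SSEA1pos cells to 7.95 ± 1.1 CPM on day 12 from 0.174 ± 0.30 CPM in MEFs (SD, n = 3; 5.13 ± 0.99, edgeR adjusted p = 9.16e-05). H2-Ab1, also of class II, fell to 0.265 ± 0.13 CPM in day 9 SSEA1pos cells from 6.04 ± 2.3 CPM in MEFs (-4.50 ± 0.81, edgeR adjusted p = 4.81e-05). In SSEA1pos cells H2-Ab1 was at 0.945 ± 0.54 CPM on day 12 and 5.96 ± 6.7 CPM at the iPS stage. Ifitm3, whose protein blocks virus entry, rose in day 6 SSEA1neg cells to 915 ± 230 CPM from 189 ± 74 CPM in MEFs (SD, n = 3; 2.28 ± 0.36, edgeR adjusted p = 2.06e-05).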

How the data were processed

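Poly-A RNA of 33 mouse libraries (11 groups of 3, assigned from the labels) was sequenced, and the values used are raw read counts per Ensembl gene that the authors deposited, in a separate file for each sample. Per the submitters' processing notes, the build was mm9 and the tools were HTSeq 0.6.0, Picard 1.100 and STAR 2.3.0, with no roles stated. The annotation was not named there. The kit marked strand, per the labels' protocols, but the deposited files carry names that describe unstranded counting, and a gene cannot be told apart from an antisense partner. The 5 summary lines that name no gene were left out.

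Of 37583 gene identifiers, 32860 had a symbol in the reference naming table. Differences were tested with edgeR 4.0.16 (glmQLFit and glmQLFTest, robust; TMM; filterByExpr) in R 4.3.3, fitting all 33 libraries together with 1 coefficient for each group (22 residual degrees of freedom). Calls needed a Benjamini-Hochberg adjusted p under 0.05 over all 17326 tested genes and a change of at least 2-fold. Standard errors were derived from the log2 change and its F statistic. The procedure was run on simulated libraries drawn independently, with changes placed only in genes above a minimum level. That run therefore does not cover effects shared by same-numbered libraries or members with few reads. Alternatives were RLE scaling, no filter on low counts, DESeq2 1.42.0, a replicate block, no fold minimum, each library left out and, added after seeing the data, no replicate 2 libraries. Figures used log2(CPM + 1) or CPM.

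The members, lists and tests were chosen with earlier results of these data known. Per-library values were given for a stated list of members with known roles and for members with the largest called changes; other pathway genes were taken from the largest called changes at a mean of at least 5 CPM. Ifit2, Ifi35, Xaf1, Parp9, Trim25 and other members outside this rule were named after their values were seen. Motif members shown were the most often called with the most matches. Same-numbered libraries deviated together (every correlation above 0.1) for the fractions on days 3, 6, 9 and 12 (lowest correlations 0.351, 0.3, 0.182 and 0.176), for SSEA1pos cells against MEFs on days 3, 6 and 12, for SSEA1pos steps up to day 12 and for all SSEA1neg steps. What same-numbered samples share is not in the labels, so this pairing was read from the data alone.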

Additional observations from a re-analysis of the deposited data

Results flagged for a closer look

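The difference between SSEA1pos and SSEA1neg cells changed with stage for 7 members by the interaction test of edgeR (Benjamini-Hochberg adjusted over all genes). Between day 3 and day 12 it moved by -3.92 on the log2 scale for Ifi44, by -1.72 for Ifi35, by -1.30 for Parp9, by -1.25 for Dtx3l, by 2.11 for Xaf1 and by -1.61 for H2-D1. Between day 12 and the iPS stage it moved by 3.62 for Oas2. Of all tested genes 7.93% moved down and 6.21% up over the first interval, and 1.44% and 0.41% over the second. The members' counts over the first interval, 5 down and 1 up of 43, were near that background, and the second rests on 1 member. Ifi35 and Xaf1 kept their call when any single library was left out and lost it only without all replicate 2 libraries (adjusted p = 0.107 and 0.0889), while the other 5 lost theirs in at least 4 of 17 alternatives.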

How the results depend on the processing

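No value reversed its direction. Scaling by RLE and dropping the fold minimum moved no count of called members by over 1.5 times. Of 302 called changes of single members, 297 kept their call under RLE, 276 without the filter on low counts, 299 with the replicate block and 173 without the replicate 2 libraries, as did 292 of 301 by DESeq2 and 1511 of 1854 with 1 library left out. Without the filter on low counts 3 members were called from day 12 to the iPS stage in SSEA1pos cells (5 with it) and 0 in SSEA1neg cells (1 with it). With the replicate block 9 were called between fractions on day 3 (5 without), 2 from day 12 to the iPS stage in SSEA1neg cells and 2 in the change of the difference between fractions over that step (1 each without); the block moved no other count by over 1.5 times. DESeq2 called 11 between fractions on day 3, 8 from day 9 to day 12 in SSEA1pos cells, and 3 each in those last comparisons.

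With each library left out, the lowest counts between fractions were 0, 12, 21, 19 and 20 at days 3, 6, 9, 12 and the iPS stage, and the highest 6, 22, 26, 23 and 30. For SSEA1pos cells against MEFs the lowest were 19, 17, 20, 17 and 22 and the highest 24, 21, 25, 19 and 26. For SSEA1neg cells against MEFs the lowest were 6, 6, 6, 7 and 9 and the highest 10, 9, 12, 9 and 20. The successive steps had lowest counts of 0, 0, 2 and 1 and highest of 2, 0, 8 and 6 in SSEA1pos cells, and lowest of 3, 0, 0 and 0 and highest of 10, 0, 0 and 3 in SSEA1neg cells. Changes of the difference between fractions had lowest counts of 2 (day 3 to day 12) and 0 (day 12 to the iPS stage) and highest of 9 and 3.

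Without the replicate 2 libraries, a setting chosen after seeing the data, counts between fractions were 0, 8, 23, 12 and 17. Against MEFs they were 18, 17, 21, 13 and 25 for SSEA1pos and 8, 4, 4, 7 and 3 for SSEA1neg cells. The steps gave 0, 0, 0 and 0 in SSEA1pos and 1, 0, 0 and 3 in SSEA1neg cells, and the changes of the difference 0 and 0. This setting leaves 2 libraries a group, and the cause of each other change was not tested. Depth limits the members with few reads, such as Mx1, Usp18 and Ifit3 in SSEA1pos cells and Oas3 and Rsad2 in MEFs.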
